A study of Mus musculus with 4 samples.

Results

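The genes described here were Klf2, the gene of a zinc-finger transcription factor, and 8 integrin and chemokine receptor genes that direct where lymphocytes go: Itgb7, Itgae, Itga4, Itga6, Itgb1, Ccr7, Ccr9 and Cxcr4. They were 9 of 33114 named genes, each found by its symbol in all 4 deposited files. Klf2 and Itgb7 were chosen because they stood out in NOD thymocytes at 6.5 weeks, so their levels in that library are a description and carry no test. The other 7 were added as genes linked to Klf2 or as integrin partners, to ask whether they moved with the pair. The data are mRNA-seq levels of sorted thymocytes, with 1 library each from NOD mice at 6.5 weeks, NOD mice at 4 weeks, C57BL/6 (B6) mice at 7 weeks and B6 mice at 4 weeks. Mice of every group were Rag1-/-, so no library represents thymocytes with an intact Rag1 gene. NOD is an inbred strain prone to autoimmune diabetes, and Rag1 is needed to assemble antigen receptor genes, so that without it thymocytes halt at the double negative stage. The labels do not say which surface markers were used for the sort, nor whether a library came from 1 animal or several.

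Klf2 is known as a factor of quiescence and trafficking in T cells. It is low in immature thymocytes and is switched on late in thymic maturation, when it drives the exit receptor gene S1pr1, and loss of Klf2 in mouse T cells alters Itgb7 and chemokine receptors. Integrins are pairs of an alpha and a beta chain. The beta7 chain (Itgb7) pairs with alpha4 (Itga4) to bind MAdCAM-1 of gut vessels, or with alphaE (Itgae) to bind E-cadherin of epithelium. The beta1 chain (Itgb1) pairs with alpha4 to bind VCAM-1 and fibronectin, and with alpha6 (Itga6) to bind laminin. Ccr7, Ccr9 and Cxcr4 are the receptors for CCL19 and CCL21, for CCL25 and for CXCL12, which guide progenitors and thymocytes into and within the thymus.

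Levels are RPKM, the authors' read counts divided by gene length and sequencing depth, and can be compared between genes. The recovered depth was between 17040000 and 24090000 reads per library, and 95% intervals cover counting error only. Double negative thymocyte markers (Il2ra, Ptcra, Cd3e, Bcl11b, Tcf7, Gata3, Notch1 and Dntt) were all above 14 RPKM in every library, while Cd8a was at 0.16 or less. The NOD week 6.5 library stood apart in its deposited share of reads that map to more than 1 place: the median over genes at 5 RPKM or above was 3%, against 0% in each of the other 3 libraries. The B6 week 7 library had lower RPKM for most genes, with a median log2 ratio of -0.38 against B6 week 4. Sex-linked transcripts also differed, with Xist at 77.9 RPKM in NOD week 6.5, 20.2 in NOD week 4, 119.8 in B6 week 7 and 100.0 in B6 week 4. The Y-linked Ddx3y was at 6.42 RPKM in NOD week 6.5, 16.65 in NOD week 4, 9.85 in B6 week 7 and 5.2 in B6 week 4. Xist was thus higher and Ddx3y lower in NOD week 6.5 than in NOD week 4. The part of these library differences in the results below was not tested. As these are bulk samples, fewer cells of a type and less RNA per cell cannot be told apart.

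The 300 bases around the starts of Klf2, Itgb7, Itga4 and Itgb1 are shown because Krüppel-like factors bind CACCC boxes. The members can be read against the presence of such boxes. Each runs 5′ to 3′ along the gene, from 250 bases before to 50 after the start, on RefSeq's GRCm38.p6, with CACCC or its reverse complement GGGTG in capitals.
Klf2, chr8:72318812-72319111, plus strand: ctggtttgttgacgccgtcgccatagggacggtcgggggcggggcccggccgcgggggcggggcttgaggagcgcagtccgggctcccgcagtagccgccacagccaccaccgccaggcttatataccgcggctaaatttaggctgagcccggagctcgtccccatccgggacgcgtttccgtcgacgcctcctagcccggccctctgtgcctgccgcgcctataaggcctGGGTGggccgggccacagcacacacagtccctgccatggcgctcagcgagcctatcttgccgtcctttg
Itgb7, chr15:102231886-102232185, minus strand: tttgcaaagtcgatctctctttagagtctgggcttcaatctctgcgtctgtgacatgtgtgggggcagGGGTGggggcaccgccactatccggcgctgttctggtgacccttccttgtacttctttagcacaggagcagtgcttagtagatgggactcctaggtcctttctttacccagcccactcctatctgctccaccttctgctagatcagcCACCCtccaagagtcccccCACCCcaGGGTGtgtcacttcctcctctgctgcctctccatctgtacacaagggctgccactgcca
Itga4, chr2:79255176-79255475, plus strand: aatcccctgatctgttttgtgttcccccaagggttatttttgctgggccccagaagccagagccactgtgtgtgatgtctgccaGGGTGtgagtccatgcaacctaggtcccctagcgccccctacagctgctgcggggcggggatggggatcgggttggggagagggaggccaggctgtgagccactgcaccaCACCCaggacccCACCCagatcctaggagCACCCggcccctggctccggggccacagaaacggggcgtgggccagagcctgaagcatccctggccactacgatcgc
Itgb1, chr8:128685404-128685703, plus strand: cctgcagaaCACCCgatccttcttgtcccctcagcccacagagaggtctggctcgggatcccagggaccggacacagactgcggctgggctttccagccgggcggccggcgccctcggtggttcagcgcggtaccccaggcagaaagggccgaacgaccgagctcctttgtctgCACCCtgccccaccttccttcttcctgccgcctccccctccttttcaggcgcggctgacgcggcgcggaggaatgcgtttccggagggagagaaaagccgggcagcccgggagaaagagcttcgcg
Promoters were found for 6 of the 9 genes, also for Ccr9 and Cxcr4, and not for Itgae, Itga6 and Ccr7. The Itgb7 window held 4 boxes, which start at -182, -35, -16 and -9 from the gene start, and none of them overlap. The Itga4 window also held 4, the Itgb1 window 2, and those of Klf2, Ccr9 and Cxcr4 held 1 each. Boxes of this kind are common: 57.5% of 32851 promoters in the table held at least 1, and 3.10% held 4 or more. The forkhead motif TGTTTAC, searched on both strands because FOXO1 drives Klf2 in T cells, was in 0 of the 6 windows and in 3.65% of all promoters. These matches describe letters in a window and do not show binding.

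**Figure D1:**
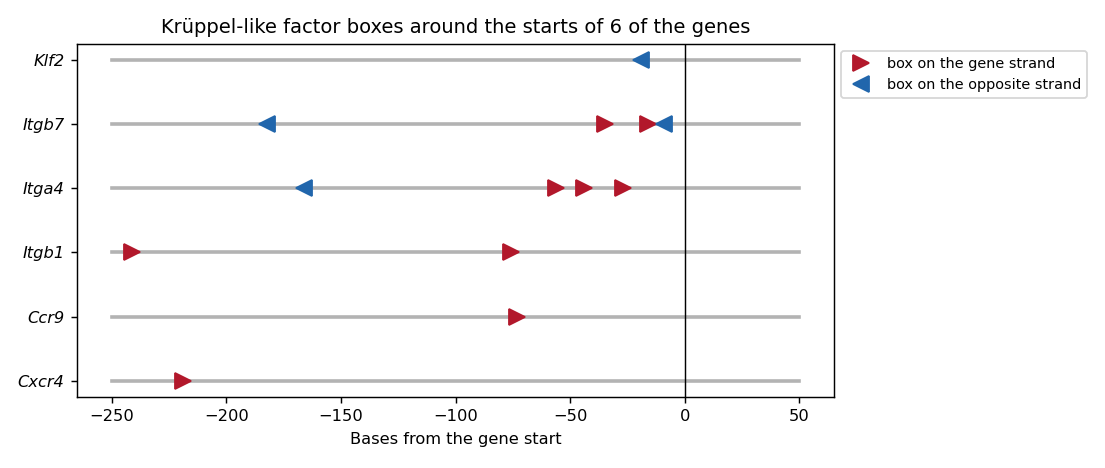
Positions of Krüppel-like factor boxes (triangles at the leftmost base of each match, pointing with its strand) between 250 bases before and 50 after the start of 6 genes. The x axis gives bases from the gene start, and Itgb7 and Itga4 have 4 boxes each.

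Klf2 was at 10.98 RPKM in NOD week 6.5, 0.87 in NOD week 4, 0.86 in B6 week 7 and 0.83 in B6 week 4. These values rested on 407 reads in NOD week 6.5, 23 in NOD week 4, 28 in B6 week 7 and 22 in B6 week 4. A single library was high, and the other 3 could not be told apart by counting error, with ratios between neighbours of 1.01 (95% interval 0.556 to 1.82) and 1.04 (0.564 to 1.87). NOD week 6.5 was 12.6-fold above NOD week 4 (8.33 to 20.2) and 12.8-fold above B6 week 7 (8.73 to 19.5). Klf2 was the 7th highest of 8646 genes by log2 ratio of RPKM + 1 between NOD week 6.5 and NOD week 4, at 2.68. Its share of shared reads was 3% in NOD week 6.5, and with those reads removed the log2 ratio was 2.64.

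Among the other 14 Krüppel-like factor genes, 4 had RPKM of 5 or more in either NOD library and 0 were past 2-fold between the NOD ages. As 0.682% of all counted genes were higher and 0.139% lower there, 0 of 4 is near the share of all genes. Klf3, a repressor that competes for the same boxes, was the most abundant, at 30.6 RPKM in NOD week 6.5, 29.3 in NOD week 4, 25.2 in B6 week 7 and 33.6 in B6 week 4. Klf6 was at 5.95 RPKM in NOD week 6.5, 4.79 in NOD week 4, 8.11 in B6 week 7 and 7.69 in B6 week 4. Klf4, which like Klf2 restrains proliferation, was at 0.18 RPKM or less in every library. Klf2 made up 14.8% of the summed RPKM of the 15 family genes in NOD week 6.5, against 1.38% in NOD week 4, 1.56% in B6 week 7 and 1.03% in B6 week 4.

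Of 8 regulators known to act upstream of Klf2, 1 of the 6 with RPKM of 5 or more was past 2-fold between the NOD ages, where 0.682% of 8646 counted genes were higher and 0.139% lower, and it reached 5 RPKM through NOD week 6.5 alone. This was Mef2c, a MADS-box factor that acts below the kinase ERK5 and is also a gene of early progenitors, at 5.61 RPKM in NOD week 6.5, 1.39 in NOD week 4, 2.14 in B6 week 7 and 0.84 in B6 week 4. Its ratio between the NOD ages was 4.04 (3.06 to 5.45), and between the B6 ages 2.55. Mapk7, the ERK5 gene, was at 5.70 RPKM in NOD week 6.5, 5.87 in NOD week 4, 4.26 in B6 week 7 and 8.90 in B6 week 4. Foxo1 was at 3.25 RPKM in NOD week 6.5, 3.72 in NOD week 4, 2.94 in B6 week 7 and 4.23 in B6 week 4, and the NOD ratio of 0.874 had an interval of 0.752 to 1.02. Mapk7 and Foxo1 thus stood close together in the NOD libraries, while Mef2c was higher in the older library of both strains.

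Itgb7 was at 18.03 RPKM in NOD week 6.5, 1.41 in NOD week 4, 1.54 in B6 week 7 and 1.81 in B6 week 4. NOD week 6.5 held 1139 of its reads, against 64 in NOD week 4, 86 in B6 week 7 and 81 in B6 week 4. The ratio was 12.8 (9.91 to 16.7) between NOD week 6.5 and NOD week 4, where Itgb7 ranked 3rd of 8646 genes, and 11.7 (9.36 to 14.7) between NOD week 6.5 and B6 week 7. The other 3 libraries followed each other at ratios of 1.18 (0.855 to 1.61) and 1.09 (0.782 to 1.54), within counting error. The share of shared reads was 3% in NOD week 6.5, and the log2 ratio of 2.98 between the NOD ages was 2.94 without those reads.

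The alpha partners of beta7 did not show this pattern. Itgae was at 1.51 RPKM in NOD week 6.5, 2.20 in NOD week 4, 2.07 in B6 week 7 and 1.87 in B6 week 4. The NOD ratio was 0.686 (0.552 to 0.849), so NOD week 6.5 had the lowest level, although its distance from the next library, B6 week 4, was within counting error. Itga4 was at 42.5 RPKM in NOD week 6.5, 37.3 in NOD week 4, 41.5 in B6 week 7 and 45.5 in B6 week 4, a range of less than 1.3-fold on 6332 to 10076 reads per library. Its share of shared reads, 8% to 11%, was the highest of the 9. Per length, Itgb7 stood at 11.9 times Itgae in NOD week 6.5, against 0.641 in NOD week 4, 0.744 in B6 week 7 and 0.968 in B6 week 4. Itgb7 stood at 0.424 of Itga4 in NOD week 6.5, against 0.0378 in NOD week 4, 0.0371 in B6 week 7 and 0.0398 in B6 week 4.

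**Figure D2:**
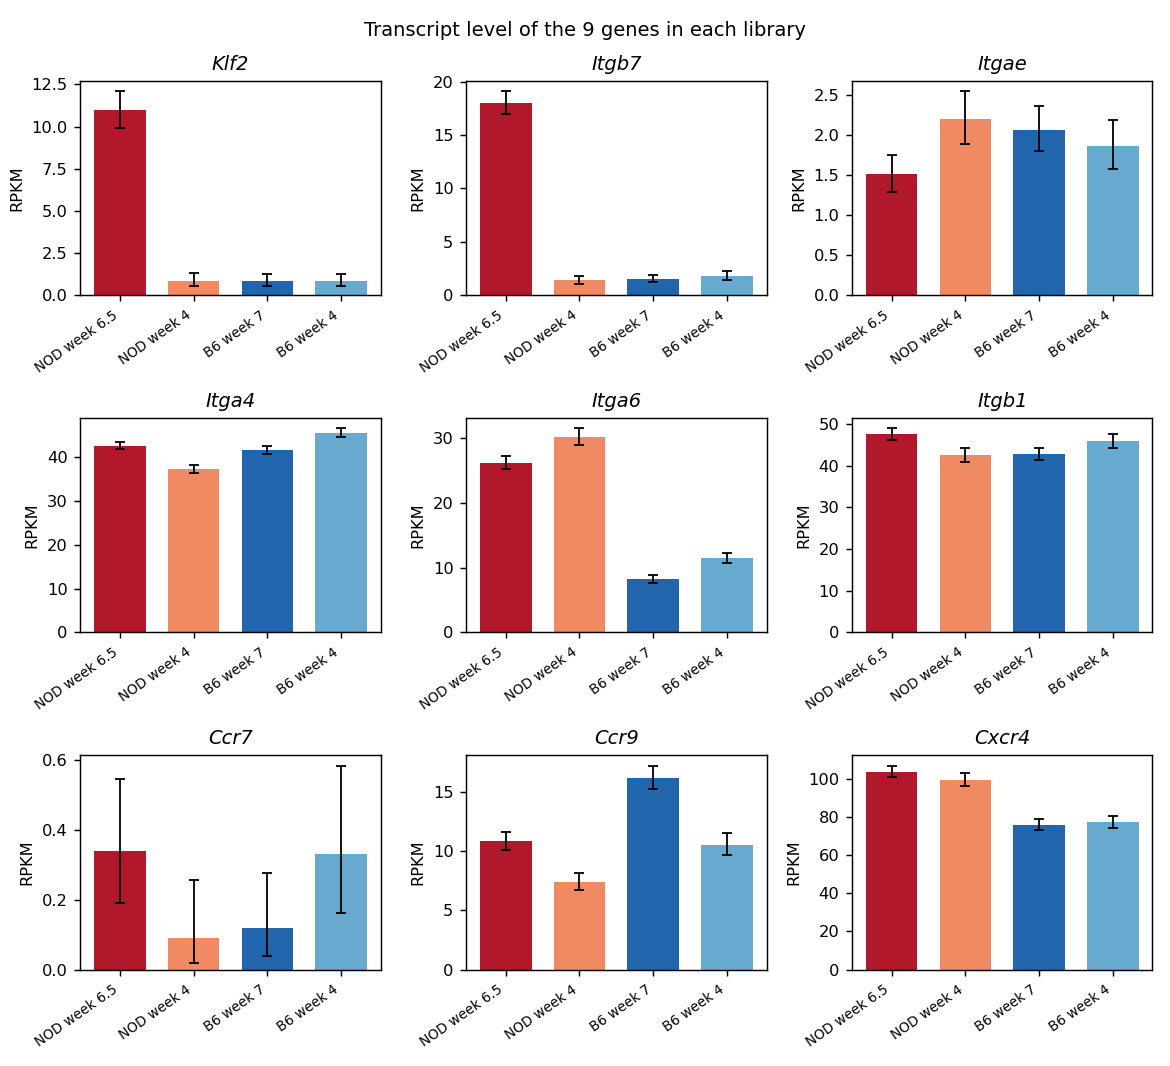
RPKM of each of the 9 genes in the 4 libraries (1 bar per library, error bars are 95% Poisson intervals of the read count). Klf2 and Itgb7 are high in NOD week 6.5 alone, at 10.98 and 18.03 RPKM, and Itga6 is high in both NOD libraries, at 26.2 and 30.2 RPKM.

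Regulators of Itgae in the TGF-beta and Runx pathways were all expressed, and 0 of the 8 with RPKM of 5 or more were past 2-fold between the NOD ages. That is near the share of all counted genes, of which 0.682% were higher and 0.139% lower. Tgfb1, the ligand, was the most abundant, at 46.9 RPKM in NOD week 6.5, 48.0 in NOD week 4, 18.1 in B6 week 7 and 38.8 in B6 week 4. Runx3, which activates Itgae in CD8 T cells, was at 9.68 RPKM in NOD week 6.5, 7.36 in NOD week 4, 6.80 in B6 week 7 and 12.5 in B6 week 4. Among genes for ligands and counter-receptors of the 9, Cdh1, the E-cadherin bound by alphaEbeta7, was at 16.8 RPKM in NOD week 6.5, 18.8 in NOD week 4, 13.8 in B6 week 7 and 21.4 in B6 week 4. Madcam1, Vcam1 and Cxcl12 were at 0.16 RPKM or less in every library, and Ccl19 was listed at 0 in all 4. Ccl25, the ligand of Ccr9, was at 0.97 RPKM in NOD week 6.5, 1.13 in NOD week 4, 1.19 in B6 week 7 and 1.26 in B6 week 4, on 20 to 26 reads, and Fn1, the fibronectin gene, was at 0.41 RPKM or less.

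Itgb1 was at 47.5 RPKM in NOD week 6.5, 42.4 in NOD week 4, 42.8 in B6 week 7 and 45.9 in B6 week 4. It was the steadiest of the 9, and the highest library could not be told apart from the next, B6 week 4, at a ratio of 1.03 (0.986 to 1.08). The ratio of Itgb7 to Itgb1 was 0.380 in NOD week 6.5, against 0.0332 in NOD week 4, 0.0360 in B6 week 7 and 0.0394 in B6 week 4. Of the summed RPKM of 8 integrin beta chain genes, Itgb7 made up 17.3% in NOD week 6.5, 1.5% in NOD week 4, 2.31% in B6 week 7 and 2.05% in B6 week 4.

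Itga6 was more than 2-fold higher in NOD than in B6 both at week 4 and in the older libraries. Its level was 26.2 RPKM in NOD week 6.5 and 30.2 in NOD week 4, against 8.28 in B6 week 7 and 11.5 in B6 week 4. Both NOD libraries lay above both B6 libraries, and no pair of neighbours in this order overlapped in counting error. The mean was 28.2 ± 2.85 RPKM in NOD and 9.89 ± 2.28 in B6 (SD, n = 2 libraries each, which differ in age). The ratio of Itga6 to Itgb1 was 0.551 in NOD week 6.5 and 0.711 in NOD week 4, against 0.193 in B6 week 7 and 0.251 in B6 week 4.

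The strain difference was tested for the other members with limma on log2(RPKM + 1), with Benjamini-Hochberg adjustment over 12413 genes, of which 2.78% were called higher and 1.59% lower in NOD. The median log2 difference of all genes tested was 0.10. Of the 9 genes, 7 passed the filter on low values (1 RPKM or above in 2 or more libraries). Klf2 and Ccr7 did not, and Itgb7 passed but is given no test. Of the remaining 6 genes, 1 was called: Itga6 was above B6 in NOD by a log2 difference of 1.43 (SE 0.24, limma adjusted p = 0.0169), higher in 2 of 2 NOD libraries than in either B6 library. The call was lost without the NOD week 4 library (log2 difference 1.33, adjusted p = 0.125) and with no filter on low values (1.43, adjusted p = 0.295), and the adjusted p over all alternatives ran from 5.80e-06 to 0.295. Of the 7 that passed, 2 had both NOD libraries above both B6 libraries, Itga6 and Cxcr4, and 0 had both below, where 25.3% of all genes tested lay above and 18.7% below. Cxcr4 had a log2 difference of 0.40 (SE 0.23, adjusted p = 0.562) and Ccr9 of -0.50 (SE 0.28, adjusted p = 0.543). For Itgae, Itga4 and Itgb1 the log2 differences were -0.07, -0.12 and 0.02, with limma adjusted p values of 0.913, 0.857 and 0.982. With 2 libraries per strain, these p-values rest on a variance that limma moderates over all genes tested. The spread between a gene's own libraries, which also differ in age, is only a part of it.

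Most integrin chains outside the 9 were low. Of 15 other alpha chains, 2 had RPKM of 5 or more in a NOD library and 0 were past 2-fold between the NOD ages. This count is near the share of all counted genes, 0.682% higher and 0.139% lower. Itgal, the alpha chain of LFA-1, led at 54.8 RPKM in NOD week 6.5, 48.2 in NOD week 4, 36.1 in B6 week 7 and 53.6 in B6 week 4. Below 5 RPKM, Itga9 was at 0.59 RPKM in NOD week 6.5, 0.12 in NOD week 4, 0.94 in B6 week 7 and 2.28 in B6 week 4, with a NOD ratio of 4.92 (2.57 to 10.9). Itgb2, the partner of Itgal, was at 9.97 RPKM in NOD week 6.5, 5.91 in NOD week 4, 2.83 in B6 week 7 and 4.45 in B6 week 4, with ratios of 1.69 (1.47 to 1.94) between the NOD ages and 3.52 (2.97 to 4.18) between NOD week 6.5 and B6 week 7. Itgb4, the other partner of alpha6, was at 24.1 RPKM in NOD week 6.5, 41.2 in NOD week 4, 16.7 in B6 week 7 and 32.01 in B6 week 4. Itgb4 was lower in the older library of both strains, with ratios of 0.585 in NOD and 0.521 in B6.

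Among 18 genes that activate integrins or link them to actin, 1 of the 14 with RPKM of 5 or more was past 2-fold between the NOD ages, again against 0.682% higher and 0.139% lower of all counted genes. This was Rasgrp2, the exchange factor that loads Rap1 to switch integrins on, at 30.5 RPKM in NOD week 6.5, 13.6 in NOD week 4, 9.10 in B6 week 7 and 15.6 in B6 week 4. Its ratio was 2.25 (2.04 to 2.49) between the NOD ages and 3.35 (3.01 to 3.74) between NOD week 6.5 and B6 week 7. Tln1, the talin gene, was at 66.7 RPKM in NOD week 6.5, 68.4 in NOD week 4, 30.03 in B6 week 7 and 64.5 in B6 week 4. Vcl, the vinculin gene, was the only gene called for strain among the 9 lists beside the members. It was at 4.0 RPKM in NOD week 6.5 and 3.01 in NOD week 4, against 1.14 in B6 week 7 and 1.52 in B6 week 4, a log2 difference of 0.95 (SE 0.20, limma adjusted p = 0.0458). The adjusted p ran from 0.00046 to 0.385 over the alternatives and missed the threshold in 7 of 12, with 0.226 without NOD week 6.5 and 0.114 without B6 week 7.

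**Figure D3:**
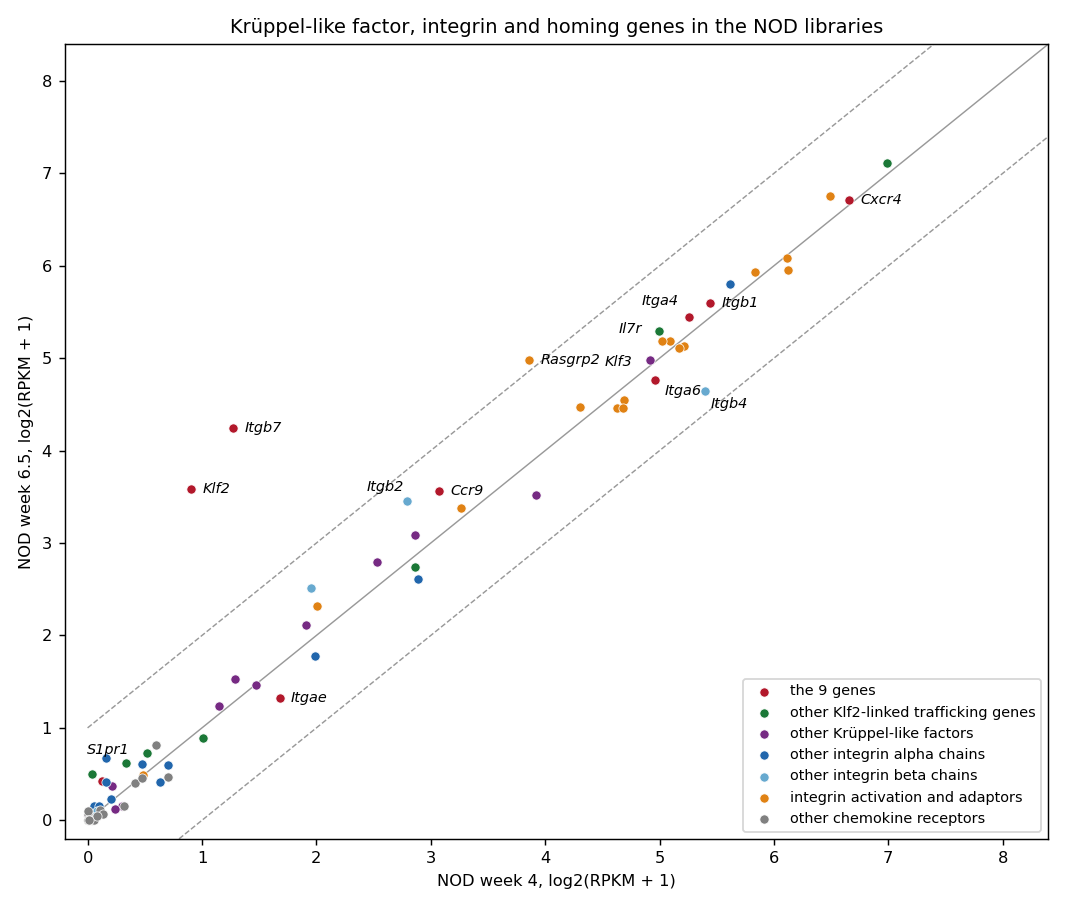
Level in NOD week 6.5 against NOD week 4, both as log2(RPKM + 1), for the 9 genes and genes of related lists (1 point per gene, solid line at equality, dashed lines at 2-fold). Of the genes shown, Klf2, Itgb7 and Rasgrp2 lie above the upper dashed line, and the lists of upstream regulators, ligands and TGF-beta and Runx genes are not shown.

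Of the homing receptors, Ccr7 was hardly detected. Its RPKM was 0.34 in NOD week 6.5, 0.09 in NOD week 4, 0.12 in B6 week 7 and 0.33 in B6 week 4, on 16 reads in NOD week 6.5, 3 in NOD week 4, 5 in B6 week 7 and 11 in B6 week 4. The NOD ratio of 3.78 had an interval of 1.09 to 20.5, and no neighbours in the order of the levels could be told apart. Ccr9 was at 10.8 RPKM in NOD week 6.5, 7.39 in NOD week 4, 16.2 in B6 week 7 and 10.5 in B6 week 4. It was thus higher in the older library of both strains, by 1.46-fold (1.29 to 1.66) in NOD and 1.53-fold (1.38 to 1.70) in B6. Cxcr4 was the most abundant of the 9, at 103.5 RPKM in NOD week 6.5 and 99.7 in NOD week 4, against 76.0 in B6 week 7 and 77.2 in B6 week 4. Its ratio was 1.04 (0.992 to 1.09) between the NOD ages and 0.985 (0.933 to 1.04) between the B6 ages. Among 18 other chemokine receptor genes, 0 reached RPKM of 5, and Ccr2 alone reached 1 RPKM in a library.

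Other trafficking genes linked to Klf2 split by level. S1pr1, the sphingosine phosphate receptor of thymic exit and the best known Klf2 target, is listed under its older symbol Edg1. It was at 0.42 RPKM in NOD week 6.5, 0.03 in NOD week 4, 0.03 in B6 week 7 and 0.10 in B6 week 4, on 31 reads in NOD week 6.5, 2 in NOD week 4, 2 in B6 week 7 and 5 in B6 week 4. S1pr1 was thus highest in the same library as Klf2, at ratios of 14.0 (2.83 to 95.8) to NOD week 4 and 14.0 (3.47 to 118) to B6 week 7, but its level stayed under 1 RPKM. Il7r, a target of FOXO1, was at 38.4 RPKM in NOD week 6.5, 30.8 in NOD week 4, 35.9 in B6 week 7 and 32.6 in B6 week 4. Selplg, which encodes the P-selectin ligand that helps progenitors enter the thymus, was at 137.2 RPKM in NOD week 6.5, 125.9 in NOD week 4, 79.2 in B6 week 7 and 170.0 in B6 week 4. S1pr4, another sphingosine phosphate receptor gene, was at 5.70 RPKM in NOD week 6.5, 6.28 in NOD week 4, 4.31 in B6 week 7 and 7.67 in B6 week 4. Il7r, Selplg and S1pr4 were all within 2-fold between the NOD ages. Of the 8 genes in this list, 4 were counted and 0 were past 2-fold there, where 0.682% of all counted genes were higher and 0.139% lower. Below 5 RPKM, the NOD ratio was 2.08 (1.33 to 3.48) for Cd44, 1.53 (0.756 to 3.38) for Cd69 and 0.851 (0.581 to 1.27) for Gpr183. Between NOD week 6.5 and B6 week 7, Gpr183 was lower, at a ratio of 0.528 (0.377 to 0.73).

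Across the 4 comparisons of 2 libraries, each of which has no replicate check, few of the 9 genes were past 2-fold among genes that reached 5 RPKM in either library. Between NOD week 6.5 and NOD week 4, 2 of the 7 counted members were higher and 0 lower, where 0.682% of all counted genes were higher and 0.139% lower. Those 2 were Klf2 and Itgb7, which reached that level through NOD week 6.5 alone and were chosen on it. The log2 ratios of the other 7 genes lay between -0.35 and 0.49. The median over all counted genes was -0.06. Between B6 week 7 and B6 week 4, 0 of 5 counted members were past 2-fold, where 0.140% of genes were higher and 3.82% lower (12 and 328 genes, or 47 and 84 with TMM scaling). Between NOD week 4 and B6 week 4, 1 of 5 was higher, Itga6 at a ratio of 2.63 (2.42 to 2.85), where 2.23% of genes were higher and 2.04% lower. Between NOD week 6.5 and B6 week 7, Klf2, Itgb7 and Itga6 were higher, 3 of 7, where 5.91% of genes were higher and 1.61% lower (510 and 139 genes, or 299 and 214 with TMM scaling). Here too Klf2 and Itgb7 reached 5 RPKM through NOD week 6.5 alone and were chosen on it, which does not hold for Itga6. The Itga6 ratio in this comparison was 3.16 (2.91 to 3.43). The other counted members had log2 ratios of 0.44 for Cxcr4, 0.15 for Itgb1, 0.03 for Itga4 and -0.54 for Ccr9, against a median of 0.28 over all counted genes.

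The age change of NOD was set against that of B6 for each gene. The log2 change in NOD exceeded that in B6 by 2.66 for Klf2 and by 3.13 for Itgb7, both past 2-fold, where 5.06% of 9028 genes were past 2-fold in this direction and 0.377% in the other (457 and 34 genes, or 189 and 99 with TMM scaling). As in the comparisons above, Klf2 and Itgb7 were counted through the older NOD library alone and were chosen on it. Their place past 2-fold here largely follows from that choice, so the shares of all genes are no test of it. For the other 7 genes the difference lay between -0.45 for Itgae and 0.55 for Ccr7. The median over all counted genes was 0.32, so Itga4 at 0.31, Itgb1 at 0.26 and Itga6 at 0.23 lay close to it, while Ccr9 at -0.08 and Cxcr4 at 0.08 lay below it. These comparisons share libraries and are not independent of each other.

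**Figure D4:**
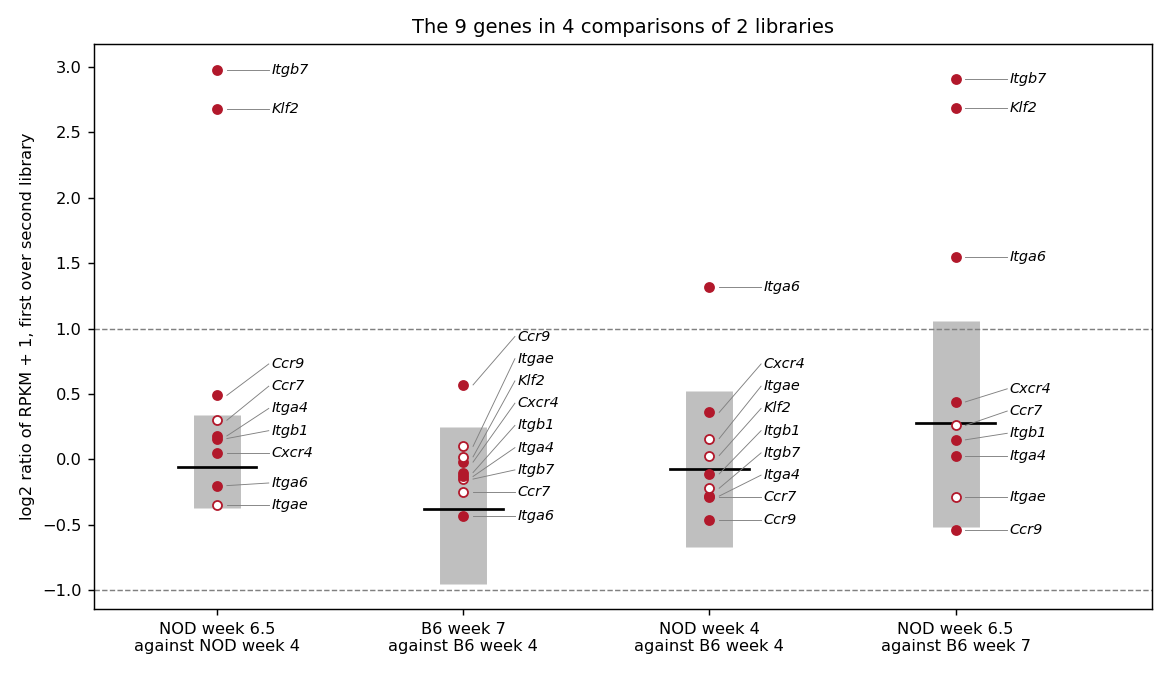
Log2 ratio of RPKM + 1 of the 9 genes in 4 comparisons of 2 libraries (filled points reached 5 RPKM in either library, open points did not). Grey bands span the 5th to 95th percentile of all counted genes, black lines mark their median and dashed lines 2-fold. Klf2 and Itgb7 lie at 2.68 and 2.98 in the comparison of the NOD ages.

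The genes whose profile over the 4 libraries was nearest to that of Klf2 were Gzmb, Cldn2, Itgb7, Lmo2 and Gpr97 (Adgrg3), of 6503 compared by Euclidean distance between centred log2(RPKM + 1) values. The distances were 0.13 for Gzmb, 0.20 for Cldn2, 0.25 for Itgb7, 0.48 for Lmo2 and 0.49 for Gpr97. Gzmb, the granzyme B gene, was at 7.67 RPKM in NOD week 6.5, 0.41 in NOD week 4, 0.53 in B6 week 7 and 0.41 in B6 week 4. Cldn2, a tight junction gene, was at 8.74 RPKM in NOD week 6.5, 0.36 in NOD week 4, 0.42 in B6 week 7 and 0.60 in B6 week 4. Nearest to Itgb7 were Cldn2 at a distance of 0.12, Klf2 at 0.25, Gzmb at 0.33, Gpr97 at 0.47 and Dlk1 at 0.57. Each pair of profiles rests on 4 points that share the NOD week 6.5 library. Klf2 and Itgb7 were chosen as high in that library, so their nearness to each other largely follows from that choice. Gzmb, Cldn2, Lmo2, Gpr97 and Dlk1 also reached 5 RPKM in that library alone.

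**Figure D5:**
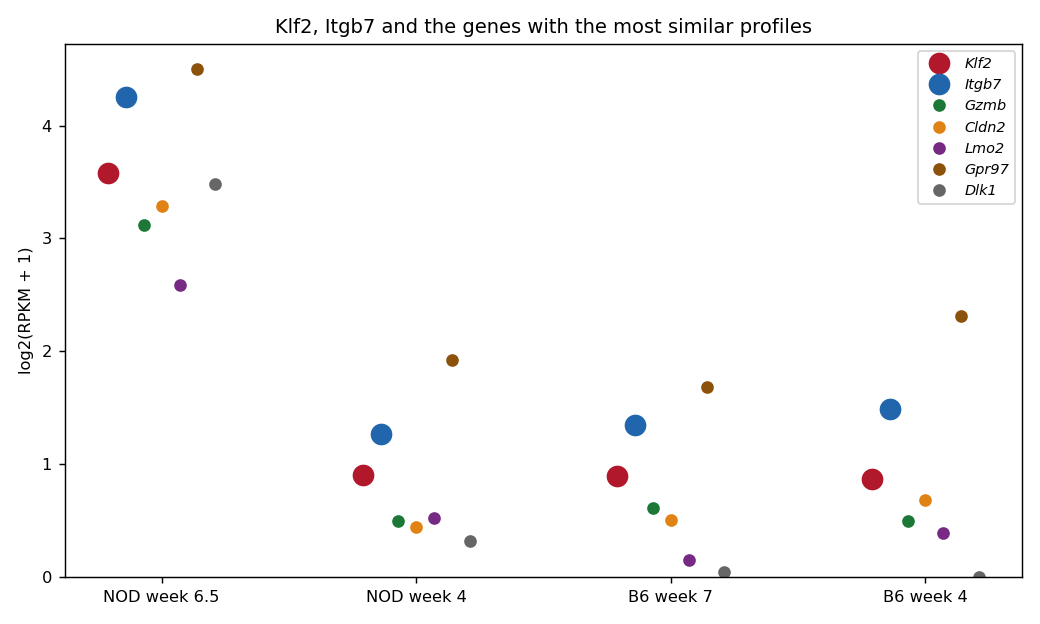
Level of Klf2, Itgb7 and the 5 other genes with the nearest profiles, as log2(RPKM + 1) in each library (1 point per gene and library, no error shown). All 7 are highest in NOD week 6.5, the library on which Klf2 and Itgb7 were chosen.

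Genes that neighbour Klf2 and Itgb7 on the chromosome did not share their pattern. Of the 5 nearest listed genes on each side of Klf2, which include Ap1m1 and Eps15l1, 8 of 10 had RPKM of 5 or more in either NOD library and 0 were past 2-fold between the NOD ages, with log2 ratios of -0.41 to 0.19 over the 10. For Itgb7, whose neighbours include Zfp740 and Rarg, 0 of 7 counted were past 2-fold, with log2 ratios of -0.13 to 0.36 over all 10. Over all counted genes, 0.682% were higher and 0.139% lower between the NOD ages. Counts of 0 among so few genes are near those shares and show nothing particular to these places.

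Markers of early progenitors were high in the same library as Klf2 and Itgb7. Of the 8 progenitor markers, the 6 that reached 5 RPKM in a NOD library (Kit, Lyl1, Lmo2, Hhex, Mef2c and Nfe2) were all more than 2-fold higher in NOD week 6.5 than in NOD week 4. Lyl1, Lmo2, Hhex and Mef2c reached that level through NOD week 6.5 alone, so the count for these 4 was largely fixed by the filter. Kit was at 19.4 RPKM in NOD week 6.5, 6.33 in NOD week 4, 4.25 in B6 week 7 and 7.62 in B6 week 4, and Nfe2 at 33.0 RPKM in NOD week 6.5, 11.5 in NOD week 4, 12.2 in B6 week 7 and 19.5 in B6 week 4. Of all counted genes, 0.682% were past 2-fold in this direction. The summed RPKM of the list was 79.3 in NOD week 6.5, 21.6 in NOD week 4, 21.5 in B6 week 7 and 35.1 in B6 week 4, while Flt3 was at 0.05 or less in every library. Their part in the levels of Klf2 and Itgb7 was not tested. Of the 5 gamma-delta markers found, 1 was past 2-fold, Cd163l1 (E430002D04Rik), at 68.3 RPKM in NOD week 6.5, 12.02 in NOD week 4, 7.11 in B6 week 7 and 6.71 in B6 week 4. Of the 6 markers of double positive and mature thymocytes, 1 reached 5 RPKM, Cd6, at 6.04 RPKM in NOD week 6.5 and 2.46 in NOD week 4. Below that level, Cd5 was at 3.31 RPKM in NOD week 6.5 and 0.64 in NOD week 4, a ratio of 5.17 (3.31 to 8.33), and Cd4 at 2.78 RPKM in NOD week 6.5 and 1.46 in NOD week 4, a ratio of 1.90 (1.46 to 2.50). The summed RPKM of this list was 13.1 in NOD week 6.5, 5.09 in NOD week 4, 4.42 in B6 week 7 and 7.80 in B6 week 4, and its part in the results was not tested. Of the endothelial markers, Pecam1 was at 27.3 RPKM in NOD week 6.5 and 18.1 in NOD week 4, and Cdh5 at 0.24 RPKM in NOD week 6.5 and 0.03 in NOD week 4, on 23 and 2 reads (ratio 8, interval 2.04 to 72.1). Tek and Emcn were listed at 0 in all 4 libraries and Kdr was at 0.01 or less, and the part of this list in the results was not tested. Hba-a1 and Hbb-b1 of the erythroid list were lower in the older library of both strains, with ratios of 0.139 and 0.129 between the NOD ages and of 0.253 and 0.316 between the B6 ages, on up to 100% shared reads. Of the 8 double negative markers, all counted, 0 were past 2-fold between the NOD ages. The NK and innate lymphoid, B cell, myeloid and stromal lists had 1 counted gene each and 0 past 2-fold, of which the stromal gene, Epcam, was at 13.2 RPKM in NOD week 6.5 and 26.8 in NOD week 4 (log2 ratio -0.97). Below 5 RPKM, NK and innate lymphoid markers went both ways between the NOD ages. Zbtb16 had a ratio of 2.93 (1.84 to 4.74) and Klrb1c of 2.25 (1.02 to 5.37). Il2rb had a ratio of 0.196 (0.0676 to 0.524) and Id2 of 0.754 (0.567 to 0.999). The part of this list in the results was not tested. The dendritic and platelet lists had 0 counted genes.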

How the data were processed

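Gene expression was measured by RNA-seq in 4 libraries of sorted thymocytes, 1 per strain and age. The submitters' processing notes name Bowtie 0.12.1 and the mouse build mm9. Reads were 32 bases long, as the file names state. The deposited values, per the file headers, are RPKM, a gene length in kilobases and the fraction of reads that map to more than 1 place. The counting program and the gene annotation were not given in the sources used here, and the protocol names no strand-specific step.

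Depth was recovered from the smallest RPKM steps of short genes (at most 0.6 kilobases, no shared reads), where 97.9% to 100% of values lay within 0.1 of a whole read. Exact Poisson intervals of levels and Clopper-Pearson intervals of ratios (95%) used these reads and cover counting error only. Libraries were compared as log2(RPKM + 1), counted at 2-fold among genes that reached 5 RPKM in either library. The strain test was made with limma 3.58.1 under R 4.3.3 (strain as the only term, intensity trend, two-sided, threshold 0.05, 2 residual degrees of freedom). It was also run on simulated data that held counting error only, without differences between animals or ages. That run therefore does not check the p-values for this design. Alternatives were another pseudocount, TMM and quantile scaling, no filter, a 1.5-fold threshold, handling of shared reads, an age block and leaving out each library.

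Of 196 symbols in the lists, 195 were matched, 20 of them by Entrez identifier through RefSeq (GRCm38.p6). The members and lists were chosen with earlier results of these data known. Named were all members, list genes past 2-fold between the NOD ages or called in limma, otherwise the most abundant gene of a list, and the 5 nearest profiles. Further list genes given with values, S1pr1 among them, and the neighbours were chosen after their values were seen. A gene that this rule names is not reported here.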

Additional observations from a re-analysis of the deposited data

Results flagged for a closer look

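The age changes of Itgb7, Itgae, Itga4, Itgb1, Ccr7 and Cxcr4 had opposite signs in NOD and B6, each from 1 library per age, and the difference itself was not tested. The log2 change in NOD minus that in B6 was 3.13 for Itgb7, -0.45 for Itgae, 0.31 for Itga4, 0.26 for Itgb1, 0.55 for Ccr7 and 0.08 for Cxcr4. Of these 6, Itga4 and Itgb1 had counting intervals clear of a ratio of 1 in both strains. With TMM scaling Itgb7, Itga4, Itgb1 and Cxcr4 were higher in the older library of both strains, and the signs stayed opposite for Itgae and Ccr7.

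The share of reads mapping to more than 1 place is a deposited column that the main comparisons of levels did not use. It entered the alternatives that handle shared reads. Its median over genes at 5 RPKM or above was 3% in NOD week 6.5, against 0% in each of the other 3 libraries. Some shared reads were recorded for 99.8% of these genes in NOD week 6.5, against 41.2% in NOD week 4, 43.4% in B6 week 7 and 41.0% in B6 week 4.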

How the results depend on the processing

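The number of the 9 genes past 2-fold was the same under each alternative tried in all 5 comparisons, and Klf2 and Itgb7 were the genes past 2-fold between the NOD ages each time. Klf2 and Itgb7 were chosen as high in NOD week 6.5, so their staying past 2-fold largely follows from that choice. The number called for strain, 1, was 0 with no filter on low values and ranged from 0 to 1 when each library was left out (0 without NOD week 4). The limma log2 difference of Itgb1 changed sign to -0.09 with TMM, -0.06 with quantile scaling, -0.06 without NOD week 6.5, -0.03 without B6 week 7 and -0.01 with shared reads removed, an alternative chosen after the data were seen. That of Itgb1 lay between -0.06 and 0.10, and that of Itgae between -0.24 and 0.11 (without NOD week 6.5), over the left-out libraries. With an age class as a block, on 1 residual degree of freedom, 665 genes were higher and 340 lower in NOD, against 345 and 197 without it, and Itga6 had an adjusted p of 5.80e-06. No paired analysis was possible because the labels give no shared replicate numbers, beyond the match of NOD with B6 within an age class that this block makes. Called for strain were 135 higher and 75 lower with no filter, 121 and 70 among genes under 10% shared reads, 264 and 249 without B6 week 7 and 2919 and 452 without B6 week 4. Counts of all genes past 2-fold moved as follows. With quantile scaling 60 were higher and 57 lower between the B6 ages (TMM 47 and 84, against 12 and 328), 292 and 227 between NOD week 6.5 and B6 week 7 (against 510 and 139), and 167 and 111 for the difference of the age changes (against 457 and 34). With no filter the counts were 90 and 16 between the NOD ages (against 59 and 12), 27 and 373 between the B6 ages, 326 and 273 between NOD week 4 and B6 week 4 (against 198 and 181), 712 and 212 between NOD week 6.5 and B6 week 7, and 598 and 66 for the difference. With a 1.5-fold threshold they were, in that order of comparisons, 164 and 94, 79 and 2580, 388 and 553, 2108 and 351, and 2288 and 172, and among genes under 10% shared reads 46 and 7, 5 and 217, 84 and 93, 320 and 65, and 287 and 20. A pseudocount of 0.1 gave 67 and 19 between the NOD ages, 18 and 499 between the B6 ages and 624 and 55 for the difference, and removing shared reads gave 124 and 149 between NOD week 4 and B6 week 4. With a pseudocount of 0.1, the log2 ratios between the NOD ages were 3.51 for Klf2 and 3.59 for Itgb7. Depth limits Ccr7 and S1pr1, with at most 16 and 31 reads, and Klf2 outside NOD week 6.5, with 22 to 28.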
